A study of Mus musculus with 20 samples.

Results

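Transcript levels of 9 genes of iron and heme handling, *Fth1*, *Ftl1*, *Hmox1*, *Tfrc*, *Slc11a1*, *Slc11a2*, *Slc40a1*, *Cp* and *Trf*, were examined in microglia sorted from the mouse spinal cord before and after injury. The genes were taken by their symbols from a list that was drawn up with earlier results of these data known, and all 9 were found among the 16810 genes measured. RNA-Seq of the polyadenylated RNA covered 20 libraries in 7 groups. All groups came from adult male CX3CR1+/eGFP mice, 12 weeks old at surgery, on a C57BL/6 background, in which 1 *Cx3cr1* allele is replaced by eGFP, so that microglia and blood monocytes fluoresce. Non-injured mice (NI) gave 3 libraries. A lateral hemisection of the thoracic cord (HS, the moderate lesion) gave 3 libraries at 72 h, 2 at 1 week and 3 at 2 weeks. A full transection (FT, the severe lesion) gave 3 libraries at each of 72 h, 1 week and 2 weeks. Mice were perfused with saline, and eGFP-high cells were sorted from 1 cm of cord around the lesion, or from the same level in NI. The study used more mice than libraries, so that a library can hold cells of several mice. Infiltrating macrophages were not excluded by the sort, although eGFP-high cells were LY6C-negative in a parallel experiment. Since the cells were measured in bulk, fewer cells of a type and less RNA per cell cannot be told apart.

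Iron enters cells bound to transferrin (*Trf*) through the transferrin receptor (*Tfrc*), and is moved out of endosomes by the divalent metal transporter 1 (*Slc11a2*) or out of phagosomes by Nramp1 (*Slc11a1*). It is stored in a shell of ferritin heavy (*Fth1*) and light (*Ftl1*) chains and leaves the cell through ferroportin (*Slc40a1*), helped by the ferroxidase ceruloplasmin (*Cp*). Phagocytes that take up red cells or hemoglobin free the iron of heme with heme oxygenase 1 (*Hmox1*), an enzyme known to be induced by heme and oxidative stress. When iron is scarce, iron regulatory proteins bind hairpins in messenger RNAs, the iron-responsive elements (IREs). In a 5′ untranslated region (UTR) they block translation, which a transcript level does not show, and in the 3′ UTR of *Tfrc* they protect the transcript from decay.

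The hairpins are printed here because IREs are the known route by which iron controls ferritin, ferroportin and the transferrin receptor, and their place separates transcripts known to be governed through stability from those governed through translation. The coding-strand sequence of GENCODE vM21 transcripts (GRCm38) was searched for CNNNNNCAGTGN in which the 5 N after the first C pair with the 5 bases that follow the motif, with G-T pairs allowed. Capitals mark the bulged C and the 6-base loop. Such a hairpin was present in a UTR of 4 of the 9 genes: once in the 5′ UTR of *Fth1* (chr19:9982732-9982761, + strand), *Ftl1* (chr7:45459778-45459807, - strand) and *Slc40a1* (chr1:45925464-45925493, - strand), and 4 times in the 3′ UTR of *Tfrc* (+ strand, chr16:32631219-32631248, chr16:32631598-32631627, chr16:32631663-32631692 and chr16:32631710-32631739).
Fth1: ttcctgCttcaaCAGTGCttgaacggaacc
Ftl1: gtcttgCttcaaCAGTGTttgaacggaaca
Slc40a1: caacttCagctaCAGTGTtagctaagtttg
Tfrc site 1: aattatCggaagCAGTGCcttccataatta
Tfrc site 2: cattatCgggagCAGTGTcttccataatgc
Tfrc site 3: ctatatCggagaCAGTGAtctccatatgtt
Tfrc site 4: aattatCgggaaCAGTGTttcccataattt

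The ferritin hairpins shared 26 of 30 bases, and each shared 13 of 30 with that of *Slc40a1*. Among the sites of *Tfrc*, 18 to 25 of 30 bases were identical. Of 21877 protein-coding genes searched on the same terms, 31 (0.142%) had a match in a 5′ UTR and 129 (0.590%) in a 3′ UTR. A match is a description of letters and pairing. For the 5 genes without one, only these letters and this pairing were not in the annotated transcripts.

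Values were the normalized counts of the study in CPM, read counts scaled to a common library size. Depth was 3872918 to 34099232 reads per library on the genes measured, and 1 read was worth 0.0330 to 0.292 CPM. The fewest reads of any of the 9 genes in a library were 39 (*Tfrc* and *Cp*). Differentially expressed (DE) genes were those with at least a 2-fold difference by limma on log2(CPM + 0.5) whose p, adjusted after Benjamini and Hochberg across the 16810 genes, was under 0.05. Differences are given on that log2 scale with their standard error (SE). Each injured group was set against the same 3 NI libraries, so these 6 comparisons are not independent of each other.

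The libraries fell into 2 classes that no label names, and the classes touched *Fth1*. *Rpl13*, a ribosomal protein gene, was at 93.6 to 194 CPM in 7 libraries and at 671 to 1651 CPM in 12. FT 1 week replicate 1 lay between, at 335 CPM. The 7 low libraries were NI replicate 3, FT 1 week replicate 3, FT 2 weeks replicate 3 and replicate 2 of HS 72 h, FT 72 h, HS 1 week and HS 2 weeks, which is 1 library in every group. Of 16810 genes, 173 (1.03%) were at least 2-fold lower in the low class than in the high class within groups, and 0 were at least 2-fold higher. The 173 genes had shorter and more GC-rich transcripts than all genes at 1 CPM or more (for the 159 of 169 such genes with a matched transcript, median 1796 bases and 55.4% GC, against 3285 bases and 49.9% GC for all). *Fth1* was 10.1-fold lower in the low class, whereas the class difference of the other 8 genes was between -0.19 and 0.61 on the log2 scale. The classes were seen in the data, so these class differences are a description, and what divides the libraries was not tested.

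**Figure D1:**
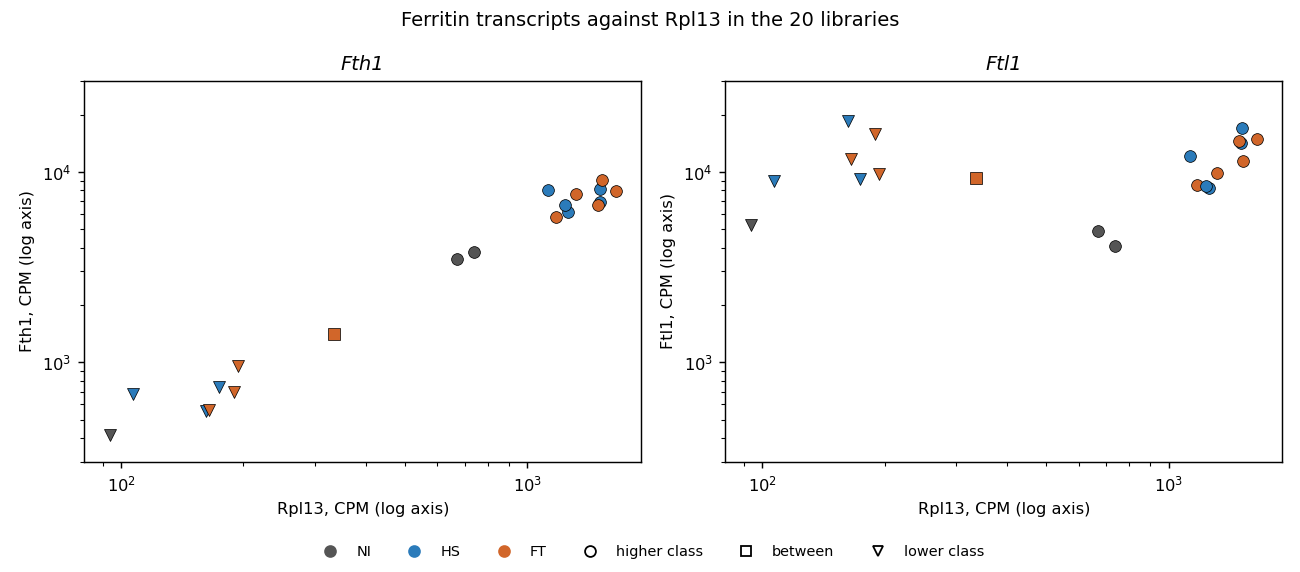
*Fth1* (left) and *Ftl1* (right) against *Rpl13*, in CPM on log axes, with 1 point per library (n = 20), colored by lesion and shaped by library class. *Fth1* spans 413 to 953 CPM in the 7 low-class libraries and 3472 to 9114 CPM in the 12 high-class libraries, and *Ftl1* shows no such division.

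All 10 listed microglia markers had reads in every group, and their summed level was 18776 to 37716 CPM over the libraries. In NI, the CPM per kilobase of the longest coding transcript placed *Ftl1* first with 4907 ± 612 (SD, n = 3), followed by *Fth1* with 1714 ± 1249.7 and *Trf* with 946 ± 207. *Slc11a1* had 176 ± 11.0, *Slc40a1* 44.8 ± 7.44 and *Hmox1* 28.1 ± 15.7 CPM per kilobase. *Slc11a2* had 7.53 ± 0.81, *Tfrc* 3.76 ± 1.10 and *Cp* 3.01 ± 0.53 CPM per kilobase. The NI libraries overlapped between *Fth1* and *Trf*, between *Slc40a1* and *Hmox1* and between *Tfrc* and *Cp*, and did not overlap between the other neighbors of this order. At 72 h after HS, *Hmox1* reached 335 ± 223 CPM per kilobase (SD, n = 3), which overlapped *Slc11a1* at 204 ± 34.2 and lay above every library of *Slc40a1* (56.1 ± 5.88).

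Of the 9 genes, 2 were DE at 72 h after HS (13.4% of all genes were) and 2 at 72 h after FT (12.2% of all genes). At 1 week, 1 of 9 was DE after HS (2.18% of all genes) and 1 of 9 after FT (4.05%). At 2 weeks, 1 of 9 was DE after HS (3.23%) and 3 of 9 after FT (4.88%). Every one of these calls was a rise and came from *Ftl1*, *Hmox1* or *Slc11a2*. Of all genes, 9.08% and 8.14% rose at 72 h, 1.7% and 2.86% at 1 week and, at 2 weeks, 2.43% and 3.53% (HS and FT). Of the 9 genes 0 fell, where 4.31% and 4.09% of all genes fell at 72 h, 0.482% and 1.2% at 1 week and, at 2 weeks, 0.797% and 1.36%. With columns scaled to the same total, 2 of the 9 rose and 1, *Tfrc*, fell at 72 h after FT, where 3.69% of all genes rose and 16.3% fell.

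Without the fold limit, 2 and 2 of the 9 genes passed the adjusted threshold at 72 h (27.3% and 24.2% of all genes), 1 and 2 at 1 week (2.68% and 7.03%) and, at 2 weeks, 3 and 3 (4.99% and 8.17%). All injured libraries lay above all NI libraries for 2 and 3 of the 9 genes at 72 h (24% and 22.2% of all genes), for 4 and 2 at 1 week (20.2% and 11.4%) and, at 2 weeks, for 5 and 5 (14.5% and 17.3%). The median log2 difference of the 9 genes was 0.33 and 0.16 at 72 h, 0.45 and 0.32 at 1 week and, at 2 weeks, 0.80 and 0.72 (HS and FT), where that of all genes lay between -0.11 and 0.02.

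**Figure D2:**
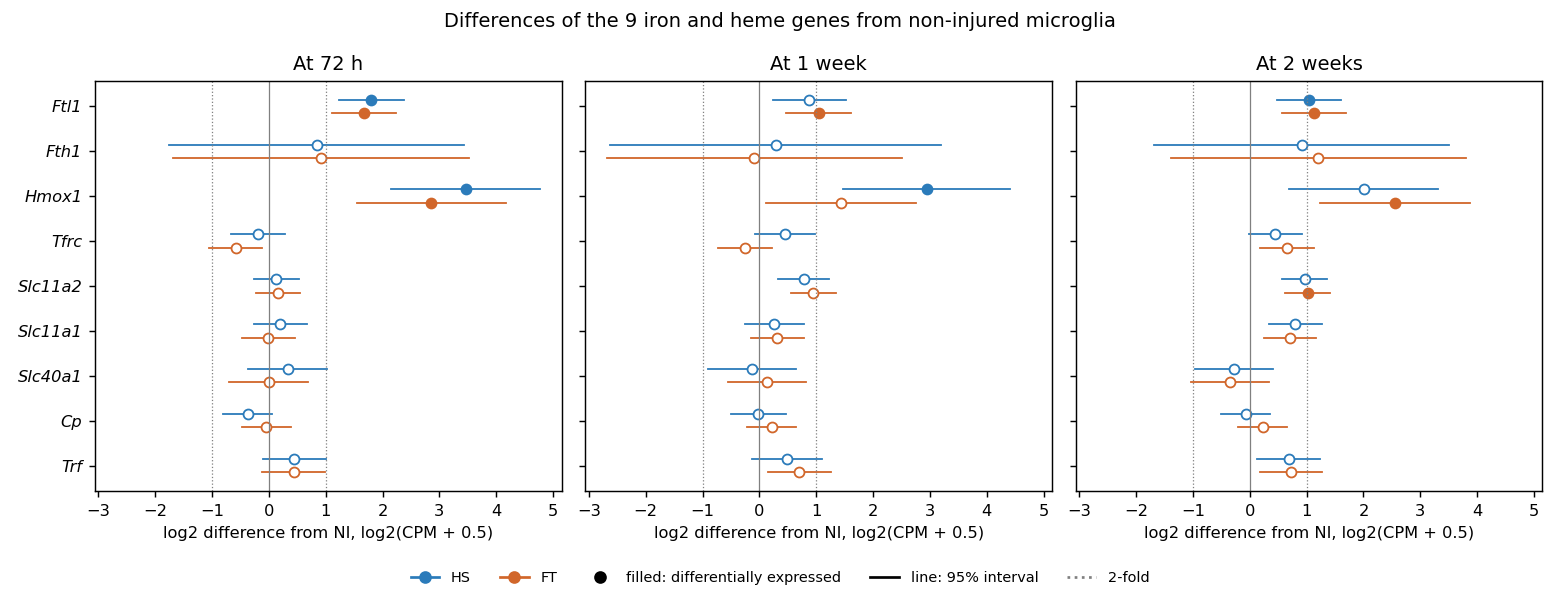
Log2 difference of each gene from NI at 72 h, 1 week and 2 weeks after HS (blue) and FT (orange), with 95% intervals from limma (3 libraries per group, 2 for HS at 1 week). Filled points are DE. *Ftl1* and *Hmox1* lie to the right at 72 h, *Slc11a2* moves right after 72 h, and *Fth1* has intervals of about 5 log2 units in every panel.

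Among the storage genes, *Ftl1*, the light chain that favors iron core formation (ENSMUSG00000050708, chromosome 7, 45457944 to 45459884, - strand), rose more than 3-fold at 72 h and was near 2-fold above NI later. It had 4097, 4901 and 5253 CPM in the NI libraries. At 72 h it had 16921, 18595 and 14188 CPM after HS and 14864, 15763 and 14512 CPM after FT. Each of these 6 libraries lay more than 2-fold above the highest NI library. The difference from NI was 1.80 after HS (SE 0.27, limma adjusted p = 4.9e-05) and 1.67 after FT (SE 0.27, limma adjusted p = 1.2e-04). At 1 week *Ftl1* had 8248 and 9191 CPM after HS and 9253, 8553 and 11685 CPM after FT, and at 2 weeks 8404, 8976 and 12165 CPM after HS and 9886, 11445 and 9713 CPM after FT. All of these lay above all NI libraries and below all 72 h libraries. *Ftl1* was DE at 1 week after FT (1.04, limma adjusted p = 0.021), at 2 weeks after HS (1.04, limma adjusted p = 0.027) and at 2 weeks after FT (1.13, limma adjusted p = 0.010), and not at 1 week after HS (0.88, limma adjusted p = 0.16).

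The later calls of *Ftl1* rested on a fold close to the limit. With every column scaled to the same total, the differences were 0.70 at 1 week after FT, 0.71 at 2 weeks after HS and 0.73 at 2 weeks after FT, and none was DE. Quantile normalization, which forces the most abundant genes to a common level, gave 0.96 for FT at 72 h and 0.25 to 0.47 for these 3 comparisons, none of them DE. Without single libraries the call was lost at 1 week after FT (NI replicate 1 or 2 or FT 1 week replicate 3; 0.91 to 1.07), at 2 weeks after HS (any NI library, or HS 2 weeks replicate 2 or 3; 0.88 to 1.12) and at 2 weeks after FT (NI replicate 1 or FT 2 weeks replicate 2; 1.02 and 1.05). The differences from 72 h were -0.92 (HS) and -0.63 (FT) at 1 week and -0.76 (HS) and -0.54 (FT) at 2 weeks, with limma adjusted p from 0.061 to 0.28. Of the 9 genes, 0 were DE from 72 h to 1 week or 2 weeks after HS, where 6.03% and 4.74% of all genes were, and 0 from 72 h to 1 week after FT, where 3.44% were. Between 1 and 2 weeks 0 of the 9 were DE after HS (0.0119% of all genes) or after FT (0.0714%).

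*Fth1*, the heavy chain with the ferroxidase center (ENSMUSG00000024661, chromosome 19, 9980598 to 9985098, + strand), was not DE in any comparison when the libraries were taken as labelled. It had 3797, 3472 and 413 CPM in the NI libraries. At 72 h it had 8110.1, 554 and 6968 CPM after HS and 7932, 695 and 6659 CPM after FT. The values of 6187 and 742 CPM at 1 week after HS, 1400.1, 5769 and 561 CPM at 1 week after FT, 6693, 682 and 7988 CPM at 2 weeks after HS and 7655, 9114 and 953 CPM at 2 weeks after FT were divided in the same way. In every group the library of the low class was the lowest, and the groups overlapped throughout. The standard deviation within groups, 1.93 on the log2 scale, ranked 2 among 14051 genes at 1 CPM or more (median 0.32). The differences from NI were -0.09 to 1.20 with an SE of 1.25 (1.40 at 1 week after HS) and limma adjusted p from 0.63 to 0.98.

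Within a library class, *Fth1* was higher after injury in each comparison with NI. In the high class the ratio to NI was 2.07 and 2.01 at 72 h, 1.70 and 1.59 at 1 week and, at 2 weeks, 2.02 and 2.31 (HS and FT, 1 or 2 libraries against 2). In the low class it was 1.34 and 1.68, 1.80 and 1.36, and 1.65 and 2.31, for 1 library against 1. *Rpl13*, which sets the class, was also higher after injury within each class. In the high class it had 737 and 671 CPM in NI and 1126 to 1651 CPM after injury. In the low class it had 93.6 CPM in NI and 107 to 194 CPM after injury. Whether *Fth1* rose apart from *Rpl13* was not tested. The class was then made a term in the fit, a choice made after seeing the data that leaves out FT 1 week replicate 1. In that fit the SE of the *Fth1* difference from NI was between 0.18 and 0.20. The class was set by *Rpl13*, whose deviations from the group means correlated at 0.997 with those of *Fth1* over 20 libraries. The small SE and the p-values of this fit therefore hold only given a split that follows *Fth1* itself. With the class as a term, *Fth1* was DE at 2 weeks after FT (1.20, limma adjusted p = 3.8e-05). It passed the adjusted threshold without reaching 2-fold in the other 5 comparisons, with differences of 0.84 and 0.92 at 72 h (limma adjusted p = 7.0e-04 and 3.4e-04), 0.84 and 0.59 at 1 week (limma adjusted p = 0.011 and 0.042) and 0.91 at 2 weeks after HS (limma adjusted p = 0.0013). In the high-class libraries alone *Fth1* was DE at 72 h after HS (1.05, limma adjusted p = 0.014) and FT (1.00, limma adjusted p = 0.020) and at 2 weeks after FT (1.20, limma adjusted p = 0.014). The high class is also set by *Rpl13*, and taking it alone leaves out the lowest *Fth1* library of every group. Its p-values for *Fth1* therefore hold only given that choice. In the fit with the class as a term, the number of DE genes among the 9 was 2, 2, 1, 3, 2 and 4 (HS and FT at 72 h, 1 week and 2 weeks), where 14%, 12.8%, 2.97%, 7.16%, 3.76% and 5.37% of all genes were DE. Both ferritin genes have close copies in the mouse genome. GENCODE vM21 lists 14 other *Fth* or *Ftl* entries, 7 of them pseudogenes, none of which is a row of the table used here, so reads shared with copies are uncertain.

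**Figure D3:**
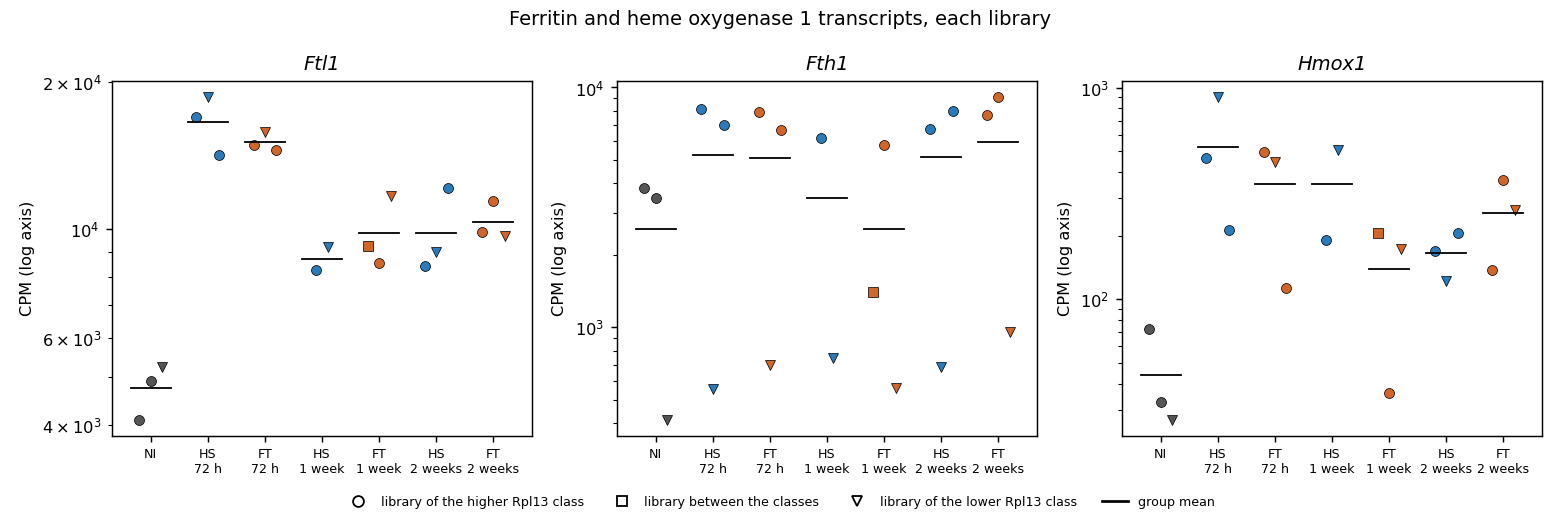
*Ftl1*, *Fth1* and *Hmox1* in each library, in CPM on a log axis, by group, with the marker shape giving the library class and a line at the group mean (n = 3, 2 for HS at 1 week). All injured libraries of *Ftl1* lie above the NI libraries, *Fth1* divides by library class in every group, and *Hmox1* is spread more than 4-fold within HS and FT at 72 h.

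The heme-degrading enzyme *Hmox1* (ENSMUSG00000005413, chromosome 8, 75093621 to 75100589, + strand) showed the largest rises of the 9 genes, and also a wide spread within groups. It had 72.3, 32.7 and 27.05 CPM in the NI libraries. At 72 h it had 464, 903 and 212 CPM after HS and 496, 447 and 114 CPM after FT. The lowest of these 6 libraries lay above the highest NI library. The difference from NI was 3.46 after HS (SE 0.63, 95% interval 2.15 to 4.78, limma adjusted p = 3.3e-04) and 2.86 after FT (SE 0.63, 95% interval 1.54 to 4.17, limma adjusted p = 0.0021), and both calls were kept in each alternative tried.

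At 1 week *Hmox1* had 192 and 507 CPM after HS and 207, 36.1 and 173 CPM after FT. FT 1 week replicate 2 was the only injured library inside the NI range. *Hmox1* was DE at 1 week after HS (2.94, SE 0.71, limma adjusted p = 0.023) and not after FT (1.43, SE 0.63, limma adjusted p = 0.22). Without FT 1 week replicate 2 the difference after FT was 2.23 and DE (limma adjusted p = 0.032). Without HS 1 week replicate 2 the difference after HS was 2.24 and not DE (limma adjusted p = 0.39), nor was it without NI replicate 2 (2.80) or NI replicate 3 (2.67) or in the high-class libraries alone (1.97). Without HS 1 week replicate 2 and in the high class alone, HS at 1 week is 1 library, which is assumed to vary like the other groups.

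At 2 weeks *Hmox1* had 169, 122 and 205 CPM after HS and 138, 366 and 264 CPM after FT, all above the NI libraries. It was DE after FT (2.55, SE 0.63, limma adjusted p = 0.012) and did not pass the adjusted threshold after HS (2.00, SE 0.63, limma adjusted p = 0.076). The call after FT was lost without NI replicate 2 (2.41), NI replicate 3 (2.27) or FT 2 weeks replicate 2 (2.24). After HS, *Hmox1* was DE with the library class as a term (limma adjusted p = 0.023) and when only HS 2 weeks and NI entered the fit (limma adjusted p = 0.0021). The standard deviation of *Hmox1* within groups was 0.97 on the log2 scale and ranked 122 among 14051 genes.

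Marker lists of other cells went in different directions at 72 h, when *Ftl1* and *Hmox1* were raised. The summed level of 9 monocyte markers was 47.4 to 58.7 CPM in NI, 567 to 748 CPM at 72 h after HS and 523 to 1197 CPM at 72 h after FT. Of these 9, 3 and 6 were DE (13.4% and 12.2% of all genes). The monocyte sum was 224 to 513 CPM at 1 week and 255 to 459 CPM at 2 weeks. Fewer of the 9 were DE then, 2 and 1 at 1 week (2.18% and 4.05% of all genes, HS and FT). At 2 weeks 1 and 1 were DE (3.23% and 4.88% of all genes). The median log2 difference of the 9 from NI was 1.33 and 0.36 at 1 week and 0.53 and 0.29 at 2 weeks. Border-associated macrophage markers summed to 219 to 235 CPM in NI and 236 to 436 CPM at 72 h. Neuron markers summed to 39.0 to 72.6 CPM in NI and 12.3 to 36.5 CPM at 72 h. Neutrophil markers summed to 27.6 to 95.7 CPM in NI, 14.8 to 19.9 CPM at 72 h after HS and 17.2 to 54.2 CPM after FT. The sums of erythroid, oligodendrocyte, astrocyte and endothelium markers overlapped NI at 72 h. The part of these cells in the levels of *Ftl1* and *Hmox1* was not tested.

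Of the uptake genes, *Tfrc* (ENSMUSG00000022797, chromosome 16, 32608920 to 32632794, + strand) was lower at 72 h than at 2 weeks after FT. It had 24.4, 13.9 and 16.9 CPM in NI, 11.6, 11.4 and 12.3 CPM at 72 h after FT, 18.4, 12.4 and 14.8 CPM at 1 week after FT, and 22.9, 31.0 and 32.5 CPM at 2 weeks after FT. All 72 h libraries of FT lay below all NI libraries, and all 2 weeks libraries lay above those of 72 h and 1 week. The rise from 72 h to 2 weeks after FT was 1.24 (SE 0.23, 95% interval 0.77 to 1.71, limma adjusted p = 0.0013), 1 of 9 genes DE where 3.81% of all genes were and 1.13% rose. This call was kept in each alternative tried, with each library left out included.

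Against NI, *Tfrc* was not DE at any time. The difference after FT was -0.59 at 72 h (limma adjusted p = 0.066), -0.25 at 1 week and 0.66 at 2 weeks (limma adjusted p = 0.087). With columns scaled to the same total, which moved the median of all genes to -0.48 at 72 h after FT, *Tfrc* was DE there at -1.04. After HS *Tfrc* had 13.2, 17.6 and 16.4 CPM at 72 h, 27.2 and 22.3 CPM at 1 week and 20.1, 32.3 and 23.1 CPM at 2 weeks. The difference between 2 weeks and 72 h after HS was 0.64 and did not pass (limma adjusted p = 0.077). *Tfrc* is also known as a gene of dividing cells. The 10 cell division genes summed to 126 to 136 CPM in NI, 918 to 1644 CPM at 72 h and 191 to 262 CPM at 2 weeks. At 72 h, 10 of 10 were DE after both lesions (13.4% and 12.2% of all genes after HS and FT). *Tfrc* at 72 h was at -0.19 (HS) and -0.59 (FT) against NI. The part of cell division in the *Tfrc* level was not tested.

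*Slc11a2* (ENSMUSG00000023030, chromosome 15, 100387898 to 100425072, - strand) was close to NI at 72 h and about 2-fold higher later. It had 37.4, 30.8 and 31.7 CPM in NI. At 72 h it had 36.6, 37.7 and 34.6 CPM after HS and 34.8, 38.3 and 38.3 CPM after FT. These overlapped NI, and the differences were 0.13 (95% interval -0.27 to 0.52) and 0.16 (95% interval -0.23 to 0.56). At 1 week it had 57.9 and 56.4 CPM after HS and 43.3, 84.2 and 73.1 CPM after FT, and at 2 weeks 67.1, 62.6 and 66.2 CPM after HS and 77.1, 64.9 and 62.2 CPM after FT. All of these lay above all NI and all 72 h libraries.

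*Slc11a2* was DE at 2 weeks after FT (1.02, SE 0.19, limma adjusted p = 0.0010). It passed the adjusted threshold just under 2-fold at 1 week after FT (0.95, SE 0.19, limma adjusted p = 0.0026) and at 2 weeks after HS (0.97, SE 0.19, limma adjusted p = 0.0027), and missed it at 1 week after HS (0.78, SE 0.21, limma adjusted p = 0.053). The fold limit therefore decided most of its calls. At 2 weeks after FT it fell under 2-fold with columns scaled to the same total (0.63), with quantile normalization (0.90) and without NI replicate 2 (0.97), NI replicate 3 (0.99) or FT 2 weeks replicate 1 (0.93). At 1 week after FT it was DE without FT 1 week replicate 1 (1.23) and without NI replicate 1 (1.03), and by edgeR and DESeq2 on the recovered reads (1.00 to 1.01). Relative to 72 h it passed the adjusted threshold under 2-fold at 2 weeks after HS (0.84, limma adjusted p = 0.0065; 10.2% of all genes passed), at 1 week after FT (0.79, limma adjusted p = 0.015; 5.28%) and at 2 weeks after FT (0.86, limma adjusted p = 0.0070; 5.78%). Its annotated exons share 402 bases with *Gm5475* on the opposite strand, which is also a row of the table, and whether the counting used strand is not given in the sources used here.

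*Slc11a1* (ENSMUSG00000026177, chromosome 1, 74375195 to 74386062, + strand) encodes the phagosomal transporter Nramp1, of which C57BL/6 mice are known to carry a loss-of-function allele. It had 407, 433 and 382 CPM in NI. At 2 weeks it had 790, 592 and 765 CPM after HS and 809, 631 and 576 CPM after FT, all above all NI libraries. The difference passed the adjusted threshold without reaching 2-fold after HS (0.80, SE 0.22, limma adjusted p = 0.038) and missed it after FT (0.71, SE 0.22, limma adjusted p = 0.054). At 72 h it had 387, 544 and 484 CPM after HS and 407, 366 and 445 CPM after FT, and at 1 week 554 and 431 CPM after HS and 339, 628 and 612 CPM after FT. These overlapped NI, with differences of -0.01 to 0.32.

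On the export side, *Slc40a1* (ENSMUSG00000025993, chromosome 1, 45908068 to 45926523, - strand), the only known exporter of iron, was not DE against NI at any time. Its level was 131 to 179 CPM in NI and 68.3 to 265 CPM over the 20 libraries, both limits in FT at 1 week, where replicate 1 had 68.3 CPM and replicates 2 and 3 had 265 and 243 CPM. The differences from NI were 0.33 and -0.01 at 72 h, -0.13 and 0.13 at 1 week and, at 2 weeks, -0.28 and -0.35 (HS and FT), with 95% intervals within -1.04 and 1.02. Without FT 1 week replicate 1, *Slc40a1* was lower at 2 weeks than at 1 week after FT (-1.11, limma adjusted p = 0.032), a difference of -0.48 with all libraries. The 8 markers of border-associated macrophages summed to 219 to 235 CPM in NI, 246 to 354 CPM at 1 week after FT and 107 to 159 CPM at 2 weeks. At 1 week after FT the list was split. Of the 8, 2 rose and 3 fell (2.86% and 1.2% of all genes), with a median log2 difference from NI of -0.93. The part of these cells in the level of *Slc40a1* was not tested.

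*Cp* (ENSMUSG00000003617, chromosome 3, 19957054 to 20009145, + strand) had low levels, 11.5 to 16.3 CPM in NI and 8.69 to 21.4 CPM over the 20 libraries, the highest in FT 2 weeks replicate 3. It was not DE in any of the 15 comparisons, and its differences from NI were -0.37 to 0.23 (limma adjusted p from 0.19 to 0.99). Astrocytes are a known source of *Cp* in the cord, and the 8 astrocyte markers summed to 346 to 578 CPM in NI, 274 to 539 CPM at 72 h after HS, 443 to 655 CPM at 72 h after FT, 266 to 431 CPM at 1 week and 154 to 283 CPM at 2 weeks, and their part in the *Cp* level was not tested. Its exons share 108 bases with *Hps3* on the opposite strand.

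*Trf* (ENSMUSG00000032554, chromosome 9, 103204001 to 103230444, - strand) was abundant in each library, with 1995 to 3026 CPM in NI and up to 4975 CPM at 1 week after FT. It was not DE against NI. The differences were 0.44 and 0.44 at 72 h, 0.49 and 0.70 at 1 week and, at 2 weeks, 0.68 and 0.72 (HS and FT, limma adjusted p from 0.11 to 0.56). All libraries lay above NI at 72 h after FT, at 1 week after HS and at 2 weeks after both lesions. FT 1 week replicate 1 had 2449 CPM against 4975 and 4877 CPM in the other libraries of its group, and without it *Trf* was DE at 1 week after FT (1.04, limma adjusted p = 0.0032). Oligodendrocytes are a main source of *Trf* in the nervous system, and their 10 markers summed to 1258 to 2532 CPM in NI and 479 to 2598 CPM after injury. Their part in the *Trf* level was not tested. In GENCODE vM21, *Gm20425* shares 2108 exon bases with *Trf* on the same strand and is not a row of the table.

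**Figure D4:**
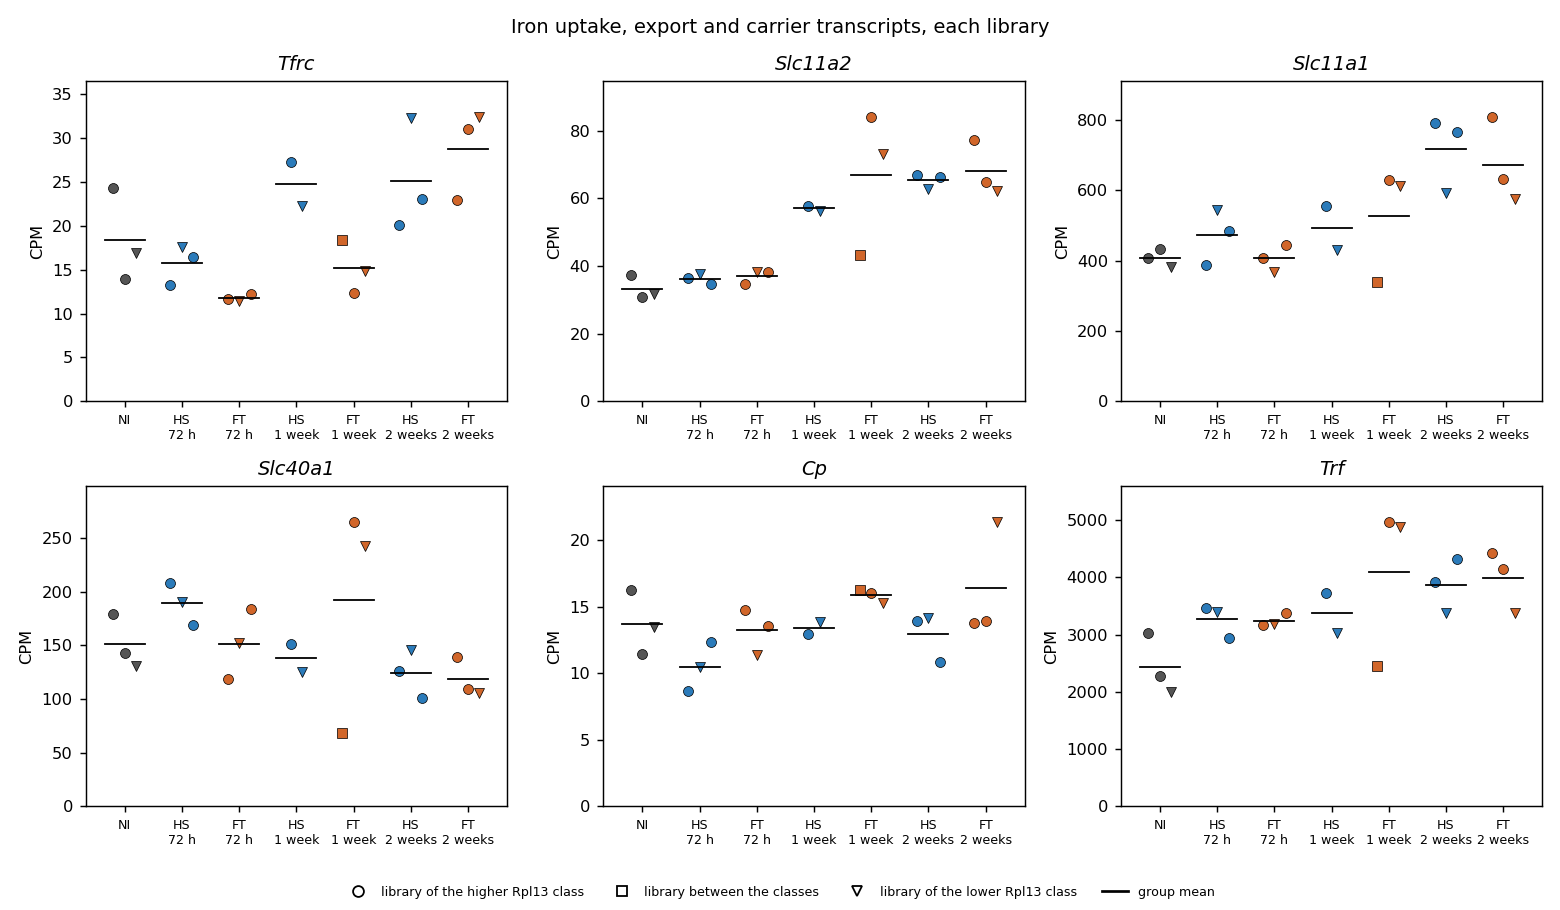
*Tfrc*, *Slc11a2*, *Slc11a1*, *Slc40a1*, *Cp* and *Trf* in each library, in CPM on linear axes that start at 0, by group, with the marker shape giving the library class and a line at the group mean (n = 3, 2 for HS at 1 week). *Slc11a2* is at 30.8 to 38.3 CPM in NI and at 72 h and at 43.3 to 84.2 CPM later, and FT 1 week replicate 1 (square) is the lowest library after 72 h for *Slc11a2*, *Slc11a1*, *Slc40a1* and *Trf*.

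Lesion severity was compared directly at each time. For FT against HS, 0 of the 9 genes and 0% of all genes were DE at 72 h, 1 week or 2 weeks by limma, where 505, 724 and 438 of all genes had an unadjusted p under 0.05. Among the 9 genes this unadjusted limit was passed by 0, 2 and 0. The pair at 1 week was *Hmox1* (-1.51, 95% interval -2.98 to -0.04, limma adjusted p = 0.999) and *Tfrc* (-0.70, 95% interval -1.22 to -0.17, limma adjusted p = 0.999), and both were lower after FT. The difference of *Hmox1* was -0.72 without FT 1 week replicate 2 and -0.81 without HS 1 week replicate 2. For *Ftl1* the difference between severities was -0.13 (95% interval -0.70 to 0.44) at 72 h, 0.16 (-0.47 to 0.80) at 1 week and 0.09 (-0.48 to 0.66) at 2 weeks. For *Fth1* the intervals spanned more than 5 log2 units, so that a 4-fold difference between the severities in either direction lay inside each interval.

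The members of the list followed different courses. Over the 20 libraries the Pearson correlation on the log2 scale was 0.77 between *Ftl1* and *Hmox1*, 0.81 between *Slc11a1* and *Slc11a2* and 0.81 between *Slc11a2* and *Trf*, whereas it was 0.01 between *Ftl1* and *Slc11a2*. The points share groups, and the 2 genes of a pair are read from the same libraries, so these values are a description. Among genes with a mean of at least 1 CPM, the most similar to *Ftl1* were *Gapdh* (r = 0.974), *Akr1a1* (0.973) and *Nagk* (0.965). Those most similar to *Hmox1* were *Ncl* (0.879), *Lamtor2* (0.850) and *Bola2* (0.840), and those most similar to *Slc11a2* were *Hvcn1* (0.961), *Rxrg* (0.944) and *Madcam1* (0.919), each over 20 libraries.

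A wider list of 72 iron and heme genes, of which 62 were rows of the table, was read beside the 9. At 72 h, 6 rose and 3 fell after HS (9.68% and 4.84% of the 62, against 9.08% and 4.31% of all genes) and 5 rose and 2 fell after FT (8.06% and 3.23%, against 8.14% and 4.09%), so that the shares at 72 h were near those of all genes. The counts of higher and lower were 2 and 0 (HS) and 3 and 1 (FT) at 1 week, and 2 and 1 (HS) and 3 and 1 (FT) at 2 weeks, or 3.23% to 4.84% higher and 0% to 1.61% lower, against 1.7% to 3.53% and 0.482% to 1.36% of all genes. With columns scaled to the same total the split turned, with 1 rise and 12 falls at 72 h after HS, 1 and 8 after FT, 0 and 0 and then 0 and 3 at 1 week, and 0 and 2 and then 1 and 2 at 2 weeks. All genes turned in the same way, with 619 rises and 3201 falls at 72 h after HS, 621 and 2743 after FT, 236 and 670 at 1 week after FT, and 245 and 435 and then 287 and 819 at 2 weeks, except at 1 week after HS (217 and 190). Quantile normalization gave 4 rises and 4 falls at 72 h after HS and 3 and 3 after FT, where all genes had 1111 and 804 and 1039 and 748. The median difference of the 62 genes as deposited was 0.23 and 0.17 at 72 h and 0.01 to 0.10 later, and 12 of the 62 were DE at least once.

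In the heme breakdown group of the wider list, the biliverdin reductase genes *Blvra* and *Blvrb* were both DE at 72 h. From 37.3 ± 2.09 CPM in NI, *Blvra* reached 105 ± 21.0 CPM with HS and 88.7 ± 9.99 CPM with FT at 72 h (SD, n = 3), differences of 1.46 and 1.23 (limma adjusted p = 2.2e-05 and 1.6e-04). *Blvrb* had 37.3 ± 3.58, 82.1 ± 13.5 and 76.2 ± 15.4 CPM, differences of 1.12 and 1.01 (limma adjusted p = 1.1e-04 and 3.6e-04), and was DE again at 1 week after FT (1.18, limma adjusted p = 2.3e-04). The third gene of the group, *Hmox2*, was not DE in any comparison with NI. With columns scaled to the same total, all 5 of these calls were under 2-fold, and the call of *Blvrb* at 72 h after FT was also lost without NI replicate 1 or FT 72 h replicate 2. Quantile normalization also put *Blvrb* at 72 h under 2-fold (0.86 after HS and 0.78 after FT).

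*Cd163*, the scavenger receptor for hemoglobin bound to haptoglobin, fell. From 15.5 ± 1.87 CPM in NI it came to 3.60 ± 0.56 CPM with HS and 3.90 ± 2.00 CPM with FT at 2 weeks (SD, n = 3), differences of -1.97 and -1.99 (limma adjusted p = 0.0050 and 0.0029) that were DE in each of 34 alternatives. Its call at 1 week after FT (-1.38, limma adjusted p = 0.046) was lost in 20 of the 34, among them without any of the NI or FT 1 week libraries. *Cd163* is a marker of border-associated macrophages and 1 of the 8 in that list. Of these 8, 6 fell and 1 rose at 2 weeks after HS (0.797% and 2.43% of all genes). After FT, 6 fell and 2 rose at 2 weeks (1.36% and 3.53% of all genes).

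Of the 13 uptake and reduction genes measured, 2 rose and 3 fell at 72 h after HS (9.08% and 4.31% of all genes) and 1 rose and 2 fell after FT (8.14% and 4.09%). Among them, *Slc39a14*, a transporter of iron not bound to transferrin, rose at 72 h after HS (1.13) and FT (1.37, limma adjusted p = 1.1e-04 and 1.5e-05), and the ferrireductase *Steap3* rose at 72 h after HS (1.40, limma adjusted p = 0.0032). *Slc25a28*, a mitochondrial iron importer, fell at 72 h after HS (-1.17, limma adjusted p = 0.0022) and FT (-1.36, limma adjusted p = 6.5e-04), calls that were kept in all 34 alternatives. The other falls, which were outside the rule for named genes and chosen after their values were seen, were those of the mitochondrial iron importer *Slc25a37* at 72 h after HS (-1.17) and FT (-1.23) and of the ferrireductase *Cybrd1* at 72 h after HS (-1.19). The iron-sulfur cluster co-chaperone *Hscb* rose in each comparison except HS at 2 weeks (1.08 to 1.59, and 0.94 in that one), with 12.8 ± 1.21 CPM in NI and 39.6 ± 4.31 CPM at 72 h after HS (SD, n = 3 each). *Hif1a*, a factor stabilized in low oxygen and low iron, rose in each comparison except HS at 72 h (1.05 to 1.50, and 0.99 in that one). *Alas1*, which starts heme synthesis, rose at 2 weeks after HS (1.06, limma adjusted p = 0.0076) and FT (1.15, limma adjusted p = 0.0023). The iron chaperone *Pcbp2* was DE at 72 h after HS at the limit (1.00, limma adjusted p = 3.8e-05). With columns scaled to the same total, the calls of *Slc39a14*, *Steap3*, *Alas1* and *Pcbp2* were lost, as were those of *Hif1a* except at 2 weeks after FT and those of *Hscb* except at 72 h.

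Among 15 genes tied to Nrf2 and Bach1, the factors known to switch *Hmox1* and ferritin genes on and off, 3 and 2 rose at 72 h, 0 and 0 at 1 week and, at 2 weeks, 3 and 3 (HS and FT), and 0 fell. These are 20% and 13.3% of the 15 at 72 h and 20% at 2 weeks after each lesion, against 9.08% and 8.14% of all genes at 72 h and 2.43% and 3.53% at 2 weeks. With columns scaled to the same total, 1 rose and 1 fell at 72 h after HS, 1 and 0 after FT, 0 and 0 and then 0 and 1 at 1 week, and 0 and 0 and then 1 and 1 at 2 weeks, beside the counts of all genes given above for this scaling. *Prdx1*, a peroxiredoxin, went from 296 ± 34.4 CPM in NI to 1162 ± 237 CPM with HS and 1110.4 ± 334 CPM with FT at 72 h (SD, n = 3). Its differences were 1.96 and 1.87 at 72 h (limma adjusted p = 2.4e-06 and 4.6e-06) and 1.16 and 1.37 at 2 weeks (limma adjusted p = 0.0033 and 4.0e-04). The calls at 2 weeks were under 2-fold with quantile normalization (0.88 and 0.997) and with columns scaled to the same total (0.83 and 0.97). *Srxn1*, which repairs peroxiredoxins, rose by 1.32 and 1.30 at 72 h and 1.36 and 1.72 at 2 weeks. *Slc7a11*, the cystine importer for glutathione synthesis, rose at 2 weeks only among the comparisons made (1.22 and 1.20); whether its difference varied between times was not tested. The calls of *Srxn1* were lost without HS 72 h replicate 1 at 72 h after HS, without FT 72 h replicate 1 at 72 h after FT and without any HS 2 weeks library or NI replicate 1 or 2 at 2 weeks after HS, and those of *Slc7a11* without NI replicate 2, NI replicate 3 or HS 2 weeks replicate 1 after HS and without FT 2 weeks replicate 3 after FT.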

How the data were processed

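RNA of eGFP-high cells was sequenced on the polyadenylated fraction after SMARTer and Nextera library preparation. Per the submitters' processing notes and the study's methods, reads without adapters were mapped with TopHat2 2.0.9 to mm10 (GRCm38), counted per gene with HTSeq 0.5.4p3, filtered for low genes and normalized with edgeR 3.3.6. Whether counting used strand is not given in the sources used here. The deposited signal is this normalized count, in CPM of an effective library size, for 16810 genes in 20 columns, all of which matched a sample (0 other columns). Column totals were 777426 to 1202190 CPM. Each value divided by the worth of 1 read was whole within 0.001 read (100% of 336200 values), which gave the reads per library.

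Values were fitted as log2(CPM + 0.5) with limma 3.58.1 (R 4.3.3), an intensity trend and 1 mean per group over all 20 libraries, and tested in 15 comparisons with Benjamini-Hochberg adjustment over all genes. The low-value filter of the authors was kept and no other was applied. The fits were tested on simulated data. Alternatives were 0.1 or 1 CPM added, at least 1 CPM in at least 2 libraries, the compared groups alone, median-of-ratios, quantile and equal-total scaling, no fold limit, a replicate block, edgeR 4.0.16 (quasi-likelihood and likelihood ratio) and DESeq2 1.42.0 on the recovered reads, and each library left out. The library class as a term (libraries under 300 and over 600 CPM of *Rpl13*) and the high class alone were chosen after seeing the data.

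The 9 genes and the wider lists were chosen with earlier results of these data known. All 9 genes are named. A gene of the wider lists is named if it was DE against NI at least once with a group mean of at least 1 CPM, at most the 3 with the largest difference per role. Similar genes are the 3 with the highest Pearson correlation. Coordinates and hairpins are from GENCODE vM21 (GRCm38), matched by symbol. Libraries are taken as replicates as labelled, and where several stem from 1 pool of mice p-values would cover technical spread only. The smallest root mean square log2 difference between libraries was 0.38, so none was a duplicate. Intervals are 95% intervals of limma.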

Additional observations from a re-analysis of the deposited data

Results flagged for a closer look

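The level of *Tfrc* relative to NI differed between 2 weeks and 72 h after FT by 1.24 on the log2 scale (SE 0.23, limma adjusted p = 0.0013), from -0.59 at 72 h to 0.66 at 2 weeks, and each of the 3 libraries at 2 weeks lay above each of the 3 at 72 h. Both times share the NI libraries, so the difference rests on the injured libraries alone. The groups held 2 or 3 libraries, too few for a search for single outlying samples.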

How the results depend on the processing

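Over 34 alternatives and 15 comparisons, 4522 of 4590 values of the 9 genes kept their side of the DE threshold, 31 lost a call, 37 gained one, and 0 called values turned their direction. In 150 cases a value that was DE in neither setting changed sign. Of 2652 values of the named wider genes, 2531 kept their side, 78 lost a call and 43 gained one. Equal column totals moved the median of all genes in the comparisons with NI to between -0.52 and -0.17 (-0.11 to 0.02 as deposited).

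The number of the 9 genes called changed as follows. Quantile normalization gave 1 at 72 h after FT, 0 at 1 week after FT, 0 at 2 weeks after HS and 1 at 2 weeks after FT. Equal totals gave 0, 0 and 1 in the last 3 of these, 1 from 72 h to 2 weeks after HS, and 0 of the 62 wider genes at 1 week after HS. With only the groups compared the counts were 0 at 1 week after FT, 2 at 2 weeks after HS and 1 from 72 h to 2 weeks after HS. Without the fold limit they were 2 at 1 week after FT, 3 at 2 weeks after HS, and from 72 h 1 to 2 weeks after HS, 1 to 1 week after FT and 2 to 2 weeks after FT, with 22 and 15 of the 62 wider genes at 72 h, 4 and 9 at 1 week and, at 2 weeks, 6 and 9 (HS and FT), where 27.3% and 24.2%, 2.68% and 7.03%, and 4.99% and 8.17% of all genes passed. At 1 week after FT edgeR quasi-likelihood, edgeR likelihood ratio and DESeq2 each gave 2, and the likelihood ratio test gave 2 at 2 weeks after HS and 1 from 72 h to 2 weeks after HS. The library class as a term, a fit that also leaves out FT 1 week replicate 1, gave 3 (and 7 wider genes) at 1 week after FT, 2 at 2 weeks after HS, 2 from 72 h to 1 week after FT and 2 from 1 to 2 weeks after FT. Leaving out that library without the class term gave 3 at 1 week after FT, 1 from 72 h to 1 week after FT and 1 from 1 to 2 weeks after FT. The high class alone, a split that follows *Fth1*, gave 3 at 72 h after HS and 3 after FT, with *Fth1* added. At 1 week the high class held 1 library after each lesion, so no count is given there. For the scaling, the class and the edgeR settings the cause was not tested.

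Leaving out 1 library gave 0 to 1 of the 9 genes at 1 week after HS, 0 to 3 at 1 week after FT, 0 to 2 at 2 weeks after HS, 1 to 3 at 2 weeks after FT, 0 to 1 from 72 h to 1 week after FT and 0 to 1 from 1 to 2 weeks after FT, and 1 to 2 wider genes at 1 week after HS. The highest count at 1 week after FT and both gains between times were without FT 1 week replicate 1.

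Replicate numbers did not pair the libraries. The deviations from the group means correlated at -0.43 to 0.44 over 57 pairs with the same number (median 0.0017) and at -0.44 to 0.43 over 114 other pairs. With the replicate number as a block, the counts of the 9 genes were 2 and 2 at 72 h, 1 and 1 at 1 week and, at 2 weeks, 1 and 3 (HS and FT), as without it, and that of the wider genes moved from 4 to 3 at 1 week after FT.

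Each of the 9 genes had at least 39 reads in each library. The SE of the *Fth1* difference from NI was 1.25 to 1.40 without and 0.18 to 0.20 with the class in the fit.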
